A study of Mus musculus with 4 samples.

Results

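The red cell genes described here were 8 gene rows of an mRNA-seq series on mouse gastrocnemius muscle: the alpha globin genes Hba-a1 and Hba-a2, the beta globin genes Hbb-bs, Hbb-bt, Hbb-b1 and Hbb-b2, the haem synthesis gene Alas2 and the membrane protein gene Slc4a1. They were chosen by symbol as genes of the erythroid lineage, and all 8 were found among 23282 rows in each of 4 libraries. The 4 libraries were normal control (no exercise, no tumor), normal exercise (exercise, no tumor), cancer control (tumor, no exercise) and cancer exercise (both), with 1 library per group. All mice were of the strain CDF1, a hybrid of BALB/c and DBA/2, with an age label of postnatal day 28. The methods have the mice purchased at about that age and killed only after the experiment, so the age at tissue collection is not settled. Tumor-bearing mice had received CT26 murine colorectal cancer cells by injection into a tail vein, and exercised mice ran on a motorized treadmill at high intensity. No genetic change is given for any group. The design text gives 10 mice per group, whereas the study describes a single representative mouse per group for sequencing, so whether a library held RNA of 1 or of several animals is not settled. With 1 library per group a difference has no replicate check, and no p-value is given. Of the 8 genes, 7 were lowest in normal exercise and highest in cancer exercise, with both libraries without exercise in between, and Slc4a1 was seen above 3 reads in cancer exercise alone. The share of all genes with this order of libraries is not given. Hbb-b1 and Hbb-b2 may count the same reads as Hbb-bs and Hbb-bt, so the 7 are not separate measurements.

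Haemoglobin carries oxygen and is built from alpha and beta globin chains, each holding a haem group. The enzyme encoded by Alas2 starts haem synthesis in erythroid cells, and Slc4a1 encodes band 3, the anion exchanger that is the main integral protein of the red cell membrane. Mammalian red cells lose their nucleus before they enter the blood, and the youngest of them, reticulocytes, still hold globin mRNA. Whole muscle contains blood in its vessels, while the muscle fibres use myoglobin as their own oxygen-binding globin. In RNA of a whole tissue, fewer cells of a type and less RNA per cell cannot be told apart.

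The libraries were made by 3′ end counting, in which a transcript gives reads from its 3′ end whatever its length, so read counts of different genes can be set side by side without a length correction. From 10647512 to 13226080 reads were counted per library over 14427 to 14830 genes, and 3 reads, used here as the floor, were a share of 2.27e-05% to 2.82e-05%. Normalized levels below are normalized read counts, the deposited log2 values turned back to the linear scale, and reads are whole counts rebuilt from those values. For genes above about 1442 reads the rebuilt count is approximate, because the step of 1 read is then finer than the last digit of the log2 value. Intervals are exact 95% Clopper-Pearson intervals on reads and cover counting error only. To be counted as higher or lower, a gene had to change by 2-fold or more and reach a level of 4 or more in either library of a comparison. Fold changes are differences of the deposited log2 values, which include a pseudocount of 1. Sets of 4 values without names are in library order: normal control, then normal exercise, then cancer control, then cancer exercise.

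The labelled lineage was checked against other red cell markers. Car1, a red cell carbonic anhydrase, had 5 reads in cancer exercise and 0 elsewhere. Epb42 had 0 reads in all 4 libraries, and Klf1, an erythroid transcription factor, had 10, 0, 4 and 0 in library order. Outside cancer exercise each of these 3 markers had 10 reads or fewer, so red cells were seen in these libraries mainly through globin transcripts and Alas2.

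The promoter sequences of the globin genes and Alas2 are shown because these genes moved together between libraries. RefSeq start sites were available for 5 of the 8 members on GRCm38 (mm10), and the windows hold the 250 bases before the start, 5′ to 3′ on the gene's strand. Another annotation, GENCODE M21, places the start of each of these genes inside its window, so part of each window lies within the GENCODE gene. Hba-a1 lies at chr11:32283422-32283671 (plus strand), Hbb-bs at chr7:103827929-103828178 (minus strand), Hbb-bt at chr7:103813924-103814173 (minus strand) and Alas2 at chrX:150547167-150547416 (plus strand). Capitals mark 4 short motifs on either strand: GATAA, the core of GATA factor sites; CACCC, the core of erythroid Kruppel-like factor sites; CCAAT; and TATAA.
Hba-a1: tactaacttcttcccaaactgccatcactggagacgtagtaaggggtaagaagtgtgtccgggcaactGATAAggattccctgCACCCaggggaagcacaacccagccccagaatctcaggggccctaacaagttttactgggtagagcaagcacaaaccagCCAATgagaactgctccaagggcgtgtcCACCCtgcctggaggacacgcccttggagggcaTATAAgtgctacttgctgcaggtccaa
Hbb-bs: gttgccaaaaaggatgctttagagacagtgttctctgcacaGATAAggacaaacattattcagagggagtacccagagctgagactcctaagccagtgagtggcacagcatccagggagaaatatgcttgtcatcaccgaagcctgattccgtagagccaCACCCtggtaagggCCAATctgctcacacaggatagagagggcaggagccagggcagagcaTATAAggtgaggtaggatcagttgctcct
Hbb-bt: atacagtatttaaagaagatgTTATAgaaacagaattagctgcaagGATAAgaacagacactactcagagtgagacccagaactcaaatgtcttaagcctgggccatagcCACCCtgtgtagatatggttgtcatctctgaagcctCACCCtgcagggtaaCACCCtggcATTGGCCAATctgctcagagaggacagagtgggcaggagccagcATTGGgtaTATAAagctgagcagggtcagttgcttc
Alas2: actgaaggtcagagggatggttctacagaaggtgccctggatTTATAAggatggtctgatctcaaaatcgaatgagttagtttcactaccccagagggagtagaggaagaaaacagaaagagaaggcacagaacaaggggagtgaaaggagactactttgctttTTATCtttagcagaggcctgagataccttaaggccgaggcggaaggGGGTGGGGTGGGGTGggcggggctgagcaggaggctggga
The Hba-a2 window, at chr11:32296242-32296491, was identical to that of Hba-a1 over 247 of 247 aligned bases, whereas those of Hbb-bs and Hbb-bt matched at 178 of 243 (73.3%). GATAA occurred in 5 of 5 windows, as did CACCC and also TATAA, whereas CCAAT occurred in 4 of 5, the exception being Alas2. Over 32851 RefSeq windows of the same length, 22.6% held GATAA, 52.0% CACCC, 33.8% CCAAT, 22.8% TATAA and 0.97% all of them. In each globin window TATAA stood on the gene's strand within 30 to 23 bases before the start, as in Hba-a1 at 27 to 23. In Alas2 the TATAA match at 207 to 203 overlapped one on the opposite strand, and in Hbb-bt the CCAAT matches at 80 to 76 and 75 to 71 adjoined on opposite strands. A match of 5 letters is a description of the sequence and does not show a bound site.

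Hba-a1 was the most abundant red cell gene in each library. Its normalized level was 163734 in normal control against 36737 in normal exercise, and 150353 in cancer control against 303428 in cancer exercise. Ranked by reads over all genes, Hba-a1 was at place 9 in normal control against 19 in normal exercise, and 6 in cancer control against 1 in cancer exercise. The order was therefore normal exercise lowest, both libraries without exercise in between and cancer exercise highest, with 8.26-fold from lowest to highest. The log2 fold change was -2.16 (-2.17 to -2.14) with exercise in healthy mice, whereas from cancer control to cancer exercise it was 1.01, a ratio of 2.02 (2.01 to 2.03).

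Hba-a2, the other adult alpha globin gene of the same cluster, followed the same order at a much lower level. Its normalized level was 3839 in normal control against 611 in normal exercise, and 2958 in cancer control against 6105 in cancer exercise. Exercise went with a log2 fold change of -2.65 (-2.77 to -2.54) in healthy mice and 1.04 (0.98 to 1.11) in tumor-bearing mice. The annotated transcripts of both genes were identical at 537 of 538 aligned bases, so how reads were divided between them depends on the counting and is uncertain. The ratio of Hba-a1 to Hba-a2 reads was between 42.6 and 60.1.

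Among the members other than Slc4a1, the beta globin genes had the widest range. Hbb-bs, the major adult beta globin row, had a normalized level of 63522 in normal control against 11449 in normal exercise, and 66128 in cancer control against 153725 in cancer exercise. Hbb-bt, its neighbour on chromosome 7, had 17353, 2588, 15149 and 39786 in library order. Hbb-bs and Hbb-bt spanned 13.4-fold and 15.4-fold from normal exercise to cancer exercise, against 8.26-fold for Hba-a1. With exercise in healthy mice the log2 fold change was -2.47 (-2.50 to -2.45) for Hbb-bs and -2.75 (-2.80 to -2.69) for Hbb-bt. With exercise in tumor-bearing mice it was 1.22 (1.20 to 1.23) and 1.39 (1.37 to 1.42).

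Hbb-b1 and Hbb-b2 are names of the adult beta globin genes in the haplotype carried by strains such as BALB/c and DBA/2, whereas the reference genome carries Hbb-bs and Hbb-bt. The Hbb-b1 row had 0.986 to 0.990 times the reads of Hbb-bs in every library, and Hbb-b2 had 0.946 to 0.961 times the reads of Hbb-bt. Hbb-b1 had a normalized level of 62604 in normal control against 11307 in normal exercise, and 65490 in cancer control against 152135 in cancer exercise. Hbb-b2 had 16417, 2450, 14521 and 38218 in library order. The log2 fold change for exercise was -2.47 and -2.74 in healthy mice and 1.22 and 1.40 in tumor-bearing mice, for Hbb-b1 and Hbb-b2 respectively. The rows moved as pairs and may count the same reads, so the 4 beta rows are not 4 independent measurements. GENCODE M21 (GRCm38) places 6 of the 8 members on the reference chromosomes, and not Hbb-b1 or Hbb-b2. Both alpha genes lie on the plus strand, Hba-a1 at chr11:32283511-32284465 and Hba-a2 at chr11:32296489-32297298. Hbb-bs, at chr7:103826534-103828096, and Hbb-bt, at chr7:103812524-103813996, lie on the minus strand.

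**Figure D1:**
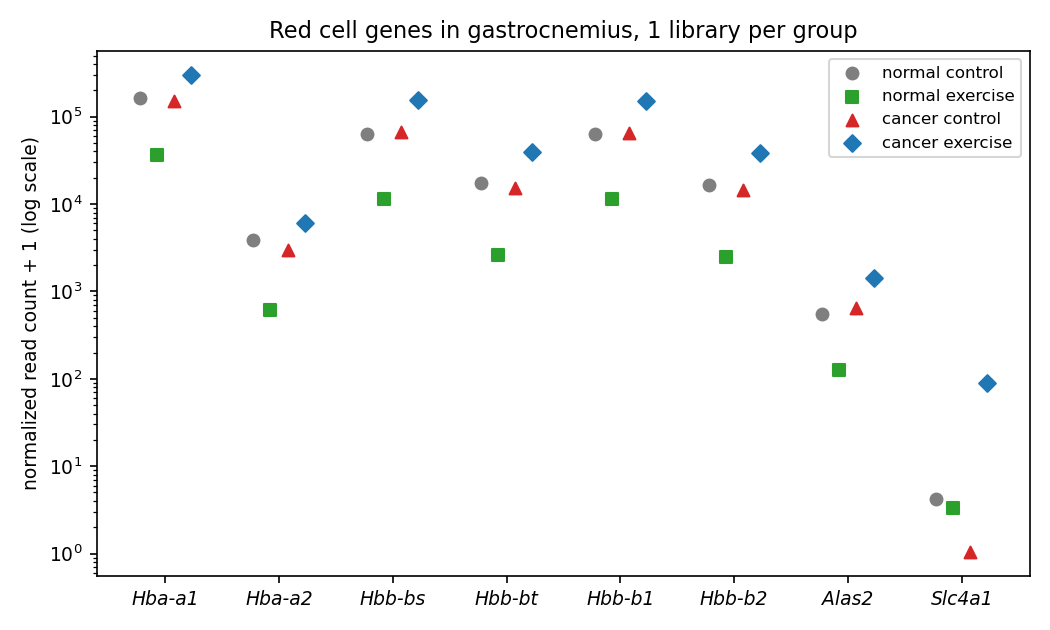
Normalized read count plus 1 (log axis) of the 8 red cell genes in the 4 gastrocnemius libraries, 1 point per library. For 7 genes normal exercise is lowest and cancer exercise highest, with Hba-a1 from 36737 to 303428, while Slc4a1 stands at 89.5 in cancer exercise and at or below 3.24 elsewhere.

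Alas2, the gene of the erythroid aminolevulinate synthase, showed the same order at a far lower level. Its normalized level was 557 in normal control against 126 in normal exercise, and 642 in cancer control against 1443 in cancer exercise, from 524, 155, 599 and 1333 reads. The normal exercise library was lowest and cancer exercise highest, a span of 11.4-fold. Exercise went with a log2 fold change of -2.14 (-2.42 to -1.89) in healthy mice and 1.17 (1.03 to 1.31) in tumor-bearing mice. Alas2 lies on another chromosome than either globin cluster, at chrX:150547375-150570638 (plus strand).

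Slc4a1, at chr11:102348824-102366203 (minus strand), departed from the other members. It had 3 reads in normal control against 3 in normal exercise, and 0 in cancer control against 83 in cancer exercise. The first 3 libraries were at or under the floor, so no fold change is given for exercise in healthy mice or for the tumor without exercise. Cancer exercise was at least 28.0-fold higher than cancer control, counted against 3 reads. Against normal exercise the ratio of scaled reads was 37.0 (12.2 to 183).

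Slc4a1 was also set against Alas2 within libraries. Had Slc4a1 kept the ratio to Alas2 that it had in cancer exercise, 32.6 reads would correspond to the Alas2 reads of normal control, 9.65 to those of normal exercise and 37.3 to those of cancer control. The counted reads were 3, 3 and 0. Per 1000 Alas2 reads, the Slc4a1 reads came to 5.73 (1.18 to 16.8) in normal control and 19.4 (3.95 to 57.6) in normal exercise, an interval that overlaps that of cancer exercise. They came to 0 in cancer control, which allows up to 6.18, and to 62.3 (49.3 to 77.8) in cancer exercise.

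Exercise in healthy mice was compared as normal exercise against normal control. Of the 8 genes, 7 met the minimum level, and all 7 were lower, from -2.75 to -2.14 on the log2 scale with a median of -2.47. Over all 14518 genes that met the minimum, 12.1% were lower and 9.44% higher, and the median was -0.01. The lower level was common to alpha globin, beta globin and Alas2 rows, and Slc4a1 was at 3 reads in each library.

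The tumor without exercise was compared as cancer control against normal control. None of the 7 genes that met the minimum was higher or lower by 2-fold, against 20.9% higher and 24.2% lower over all 14818 genes. The log2 fold change was -0.12 for Hba-a1, -0.38 for Hba-a2, 0.06 for Hbb-bs, -0.20 for Hbb-bt, 0.07 for Hbb-b1, -0.18 for Hbb-b2 and 0.20 (0.03 to 0.37) for Alas2. The signs were mixed, with 3 genes above 0 and 4 below, and the median was -0.12 against -0.04 over all genes.

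Exercise in tumor-bearing mice was compared as cancer exercise against cancer control. All 8 genes met the minimum and were higher, with a median of 1.22, against 15.6% higher and 15.1% lower and a median of 0.01 over 14491 genes. Slc4a1 met the minimum through cancer exercise alone, at 83 reads against 0, so it could not have been counted as lower. Hba-a1 and Hba-a2 were close to the 2-fold line: with scaling by total count they changed by 0.95 and 0.98 on the log2 scale, and 6 genes were then counted as higher. The direction was the same under each scaling tried.

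The tumor in exercised mice was compared as cancer exercise against normal exercise. All 8 genes were higher, against 13.9% higher and 16.3% lower over 14470 genes. Slc4a1 again met the minimum through cancer exercise alone, at 83 reads against 3, and could not have been counted as lower. The log2 fold change was 3.05 (3.03 to 3.06) for Hba-a1, 3.32 (3.21 to 3.43) for Hba-a2, 3.75 (3.72 to 3.77) for Hbb-bs, 3.94 (3.89 to 4.00) for Hbb-bt and 3.51 (3.28 to 3.77) for Alas2. These were the highest and the lowest library for 7 members, and the median was 3.75 against -0.03 over all genes.

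With the healthy exercise effect subtracted from the tumor-bearing one, the 7 members other than Slc4a1 differed by 3.17 to 4.14 on the log2 scale. Hba-a1 had the smallest difference at 3.17, and Hbb-bt and Hbb-b2 the largest at 4.14. Over all 15485 genes with a value, 21.7% had a difference of at least 2-fold upwards and 19.3% downwards, and the median was 0.02. The difference of Slc4a1 rests on healthy libraries at the floor and is not used. The comparisons share libraries, and with 1 library per group the difference could not be tested.

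**Figure D2:**
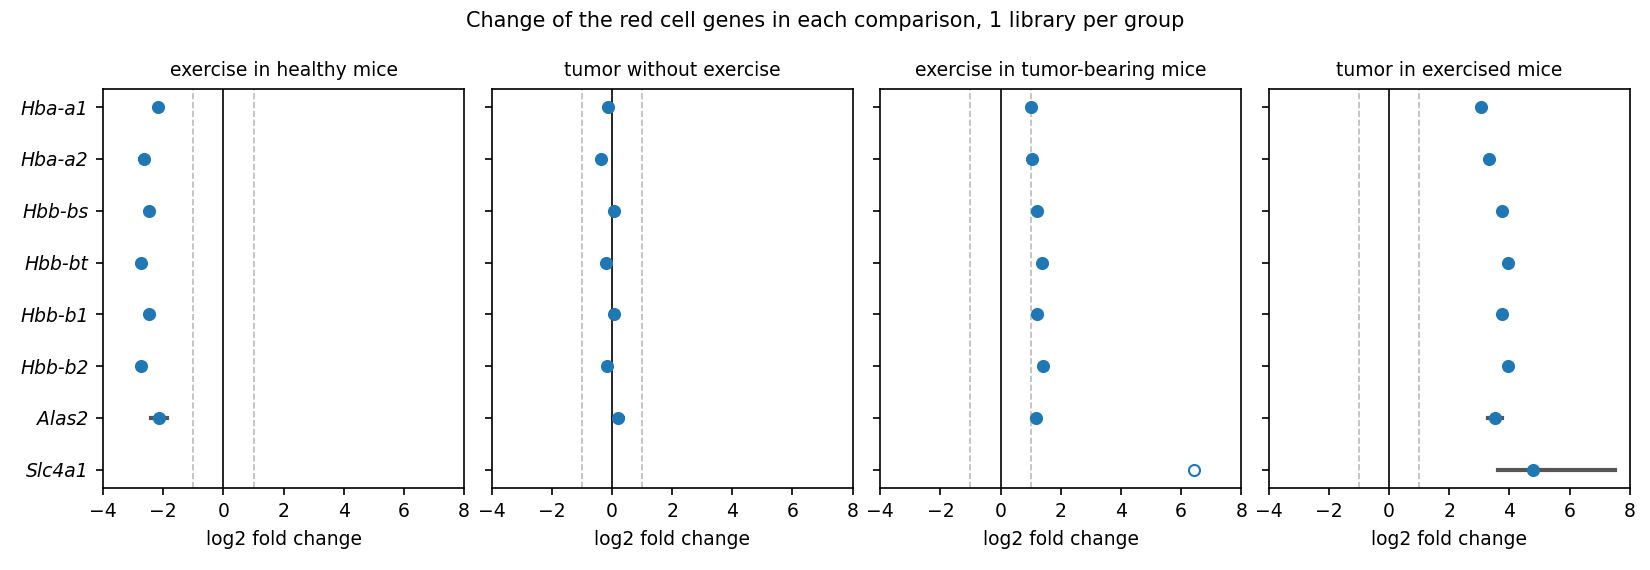
Log2 fold change (horizontal axis) of each red cell gene in the 4 comparisons, with the 95% counting interval as a line and the 2-fold limits dashed. Values lie near -2.47 for exercise in healthy mice, near 0 for the tumor without exercise and right of 0 in the other panels. The open circle marks Slc4a1 against a library with 0 reads, and Slc4a1 is not drawn where it did not meet the minimum.

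As a share of all reads, which does not depend on the scaling between libraries, the 6 globin rows took 2.73% (2.72 to 2.74) in normal control against 0.608% (0.603 to 0.612) in normal exercise, and 2.76% (2.75 to 2.77) in cancer control against 5.81% (5.79 to 5.82) in cancer exercise. Without Hbb-b1 and Hbb-b2 the shares were 2.07%, 0.479%, 2.06% and 4.21%. The libraries without exercise were close to each other, and the exercised libraries lay on either side of them. Alas2 took 0.00465%, 0.00117%, 0.00563% and 0.0121%.

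**Figure D3:**
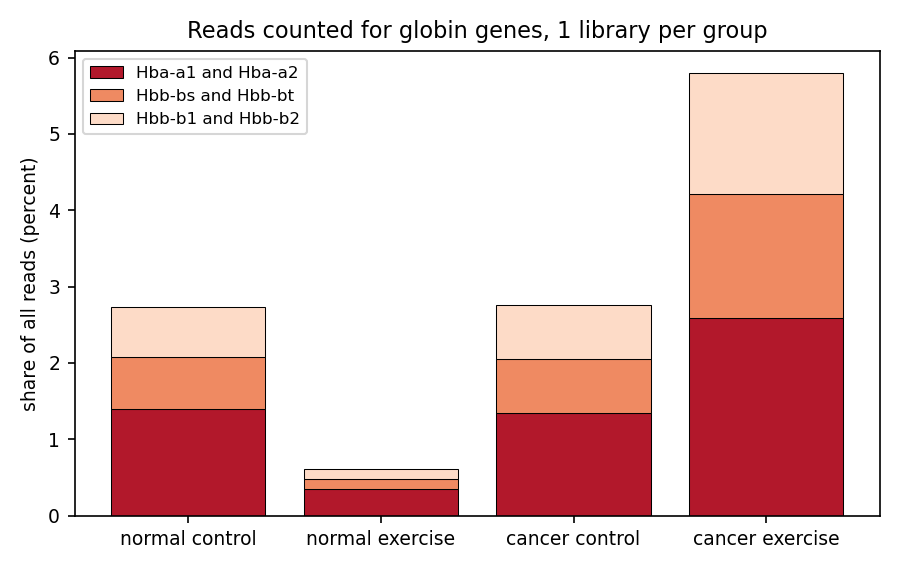
Share of all reads (percent, axis from 0) counted for the globin genes in each library, stacked by alpha globin rows and both pairs of beta globin rows, which may count the same reads. The stack is 0.608% in normal exercise and 5.81% in cancer exercise.

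The balance of alpha and beta globin reads was not the same in the 4 libraries. Reads of Hba-a1 and Hba-a2 per read of Hbb-bs and Hbb-bt were 2.07 (2.05 to 2.09) in normal control against 2.66 (2.61 to 2.71) in normal exercise, and 1.89 (1.87 to 1.90) in cancer control against 1.60 (1.59 to 1.61) in cancer exercise. The ratio was highest where globin reads were fewest and lowest where they were most abundant, and the intervals did not overlap. The ratio of Hbb-bs to Hbb-bt stayed between 3.66 and 4.42. Whether globin counts of CDF1 mice aligned to a reference of another haplotype are complete was not tested.

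Alas2 kept close to the globin reads. Per 1000 reads of Hba-a1, Hba-a2, Hbb-bs and Hbb-bt there were 2.24 (2.05 to 2.44) Alas2 reads in normal control against 2.45 (2.08 to 2.86) in normal exercise, and 2.73 (2.52 to 2.96) in cancer control against 2.87 (2.72 to 3.03) in cancer exercise. The ratio spanned 1.28-fold, whereas Alas2 itself spanned 11.4-fold. The interval of normal exercise overlapped those of the other libraries, and the interval of normal control lay below those of both tumor-bearing libraries.

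**Figure D4:**
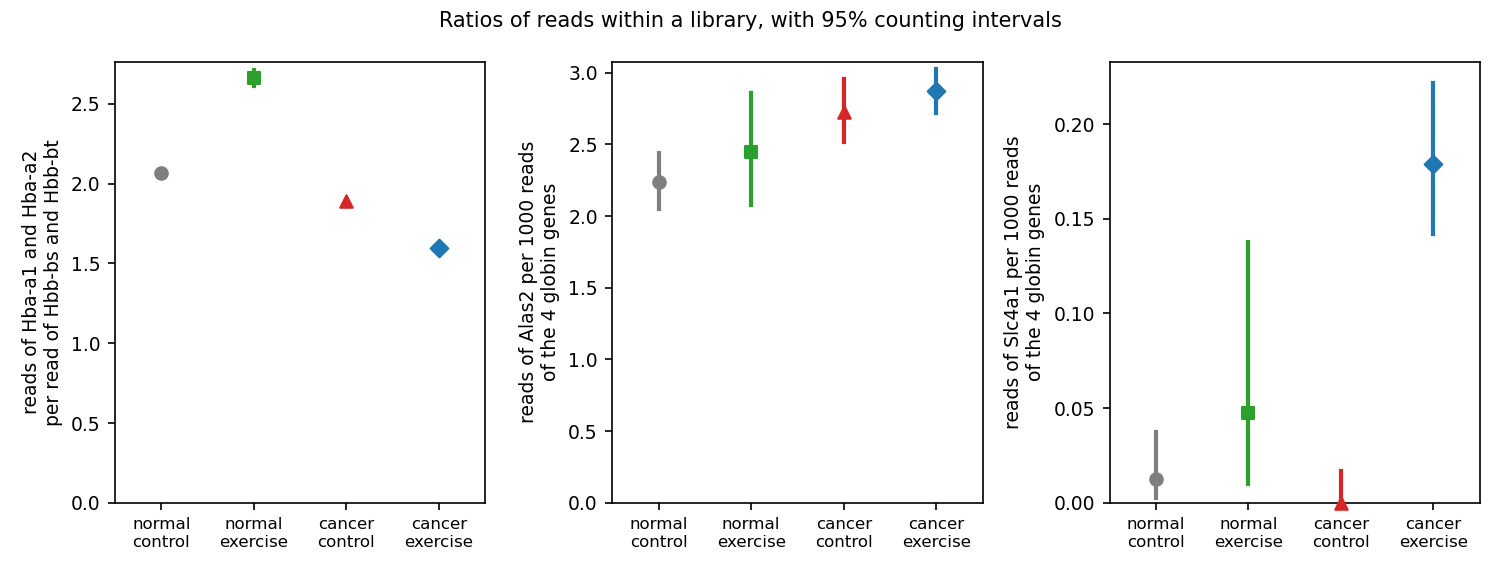
Ratios of reads within a library, each axis from 0, with 95% counting intervals as lines: alpha per beta globin read, Alas2 per 1000 globin reads and Slc4a1 per 1000 globin reads. The alpha to beta ratio falls from 2.66 in normal exercise to 1.60 in cancer exercise, Alas2 stays between 2.24 and 2.87, and Slc4a1 is 0.179 in cancer exercise.

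Other globin genes were looked at by cell type. Of 6 embryonic and other alpha and beta type globin rows, Hbq1b, a theta globin, had 0, 0, 2 and 22 reads in library order, and Hbq1a had 0, 0, 0 and 11. None of the 6 met the minimum in the comparisons without cancer exercise, and 2 were higher in both comparisons with it. These 2 met the minimum through cancer exercise alone, so they could not have been counted as lower. Myoglobin (Mb), the oxygen-binding globin of muscle fibres, had a normalized level of 28684, 13738, 7165 and 11330 in library order, so its lowest library was cancer control and not normal exercise. With exercise Mb changed in the same directions as the red cell globins, by -1.06 in healthy mice and 0.66 in tumor-bearing mice on the log2 scale. Cytoglobin (Cygb), found in fibroblast-like cells, had 1023, 1294, 1299 and 1081. Of the 4 globins of other cells, 2 met the minimum, and the count lower by 2-fold was 1 with exercise in healthy mice, 1 for the tumor without exercise and 0 in the other comparisons, with none higher. The medians of these were -0.36, -0.83, 0.20 and -0.27.

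The 17 genes of the red cell membrane and its skeleton, among which some are also used by muscle, were mixed. Of those that met the minimum, 1 of 9 was higher and 0 lower with exercise in healthy mice (median 0.14), 5 of 12 higher and 5 lower for the tumor without exercise (median -0.11), 7 of 14 higher and 1 lower with exercise in tumor-bearing mice (median 0.91), and 5 of 14 higher and 3 lower with the tumor in exercised mice (median 0.61). Of the abundant members of the list, Aqp1, a water channel of red cells and endothelium, had a normalized level of 9396 in normal control against 16046 in normal exercise, and 8797 in cancer control against 14193 in cancer exercise. Epb41 (a membrane skeleton protein) had 2027, 1333, 1855 and 2168, with the same lowest and highest library as the globins but under 2-fold in each comparison. Sptb (beta spectrin), at 1029, 1195, 2350 and 2099, and Tmod1 (tropomodulin), at 1813, 1941, 744 and 1537, had another order. Rhd, the Rhesus antigen gene, had 14 reads in cancer exercise and 0 elsewhere, and was picked out after its values were seen.

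Haem synthesis enzymes other than Alas2, which most cells use, did not follow Alas2 in healthy mice. All 8 met the minimum with exercise in healthy mice, 1 higher and 0 lower (median 0.08), and all 8 with exercise in tumor-bearing mice, 3 higher and 0 lower (median 0.69). With the tumor without exercise 0 of 7 were higher and 2 lower (median -0.74), and with the tumor in exercised mice 0 of 8 were higher or lower (median -0.13). Fech, the enzyme that inserts iron into the ring, had a normalized level of 1333, 1309, 868 and 1347 in library order. Alas1, the housekeeping counterpart of Alas2, had 1094, 761, 604 and 632. Urod and Alad, which act between the first and the last step of the pathway, were lowest in cancer control, at 391 and 298.

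Of 23 further erythroid cytosol and organelle genes, 19 met the minimum in each comparison. The counts higher and lower were 1 and 5 with exercise in healthy mice (median -0.42), 3 and 5 for the tumor without exercise (median 0.36), 6 and 3 with exercise in tumor-bearing mice (median 0.45) and 5 and 2 with the tumor in exercised mice (median 0.65). The most abundant of them, Ubac1, Mgst3, Bnip3l and Prdx2, which many cells express, were under 2-fold in each comparison. Alox15, the reticulocyte lipoxygenase that macrophages and eosinophils also make, had 0, 25, 46 and 1 reads in library order, unlike the members.

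Of 10 erythroid transcription factors, 6 or 7 met the minimum. The counts higher and lower were 0 and 1 of 6 with exercise in healthy mice (median -0.25), 1 and 2 of 7 for the tumor without exercise (median -0.73), 0 and 2 of 7 with exercise in tumor-bearing mice (median -0.41) and 1 and 2 of 6 with the tumor in exercised mice (median -0.54). The most abundant, Sox6, which muscle fibres also use, had a normalized level of 1284, 2100, 776 and 1210 in library order. Lmo2 had 216, 166, 98.5 and 73.7, Ldb1 had 94.7, 116, 136 and 136, and Zfpm1 had 68.1, 50.2, 102 and 41.2.

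Genes of iron uptake and storage, all 10 of which met the minimum, were counted higher and lower at 1 and 2 with exercise in healthy mice (median -0.06), 1 and 3 for the tumor without exercise (median -0.15), 1 and 2 with exercise in tumor-bearing mice (median -0.14), and 0 and 2 with the tumor in exercised mice (median -0.02). Tfrc, the transferrin receptor, had a normalized level of 1330 in normal control and 1748 in normal exercise against 126 and 159 in the tumor-bearing libraries. The groups thus divided by tumor and not by the globin level. The ferritin genes Fth1 and Ftl1 were under 2-fold in each comparison, and Trf (transferrin) was highest in normal control at 1059.

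Of 9 genes of erythropoietin and erythroid signals in the files, 7 met the minimum, with 1 higher and 0 lower (median -0.08), 1 and 1 (median -0.25), 1 and 1 (median 0.32), and 1 and 0 (median -0.25) in the 4 comparisons in the order above. Epo, the hormone of red cell production made mainly in kidney, had 0 reads in all 4 libraries. Stat5b, Kitl, Jak2 and Stat5a, the most abundant of the list, were under 2-fold in each comparison. Of 11 genes that clear haem and haemoglobin, 10 met the minimum, with 0 higher and 0 lower (median 0.02), 4 and 1 (median 0.31), 1 and 2 (median 0.09), and 3 and 0 (median 0.42). Cd163, the macrophage receptor for haemoglobin bound to haptoglobin, had a normalized level of 304, 281, 614 and 846 in library order. The other abundant genes of the list were Slc48a1 and Lrp1, both under 2-fold throughout, and Hmox2, which was lowest in cancer control at 349.

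The summed markers of other blood cells did not share the globin order. The summed level of the 8 red cell genes was 27367, 6087, 27647 and 58192 CPM in library order, where CPM are reads scaled to a common library total. The 13 platelet markers summed to 98.9, 102, 168 and 123 CPM, and from 1 to 6 of them had 0 reads in a library. Most of the platelet sum came from Pf4 alone, at 74.7, 80.6, 134 and 85.0 CPM. The 13 neutrophil markers summed to 9.58, 21.8, 367 and 229, and the 13 lymphocyte markers to 1.69, 6.58, 1.31 and 1.09. Neutrophil markers were thus higher in both tumor-bearing libraries, whereas globin reads were not higher in cancer control.

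By the same count rule, platelet markers were 1 higher and 4 lower of 9 with exercise in healthy mice (median -0.95), 6 and 0 of 11 for the tumor without exercise (median 1.10), 0 and 2 of 10 with exercise in tumor-bearing mice (median 0.02), and 6 and 1 of 10 with the tumor in exercised mice (median 1.80). Pf4 (platelet factor 4) had a normalized level of 895, 864, 1530 and 1015 in library order, and Ppbp, the other platelet chemokine gene, had 26.6, 9.56, 64.2 and 87.6. Ppbp shared the lowest and the highest library with the globins, and Pf4 did not.

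Neutrophil markers were 2 higher and 0 lower of 5, 9 and 0 of 10, 2 and 4 of 11, and 7 and 0 of 9 in the 4 comparisons, with medians of 0.58, 3.29, -0.08 and 3.78. S100a8, a calcium-binding protein gene of neutrophils, had a normalized level of 17.1, 71.2, 2054 and 958 in library order. Lymphocyte markers were 5 and 1 of 7, 2 and 3 of 5, 2 and 2 of 4, and 2 and 6 of 8, with medians of 1.98, -2.35, -0.12 and -2.90. The B cell gene Cd79b had 5, 29, 0 and 0 reads and Cd22 had 4, 14, 0 and 0, so the normal exercise library, lowest in globins, was highest in these. The part of these cells in the red cell result was not tested.

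Tissue cells of the muscle were compared in the same way. The 12 monocyte and macrophage markers summed to 382, 423, 679 and 582 CPM and were 0 higher and 0 lower, 5 and 1, 1 and 1, and 1 and 0 in the 4 comparisons, with medians of 0.05, 0.49, 0.00 and 0.70. The 12 endothelial markers, which line the vessels that hold the blood, summed to 431, 655, 542 and 589 and were 0 and 0, 2 and 0, 1 and 0, and 1 and 1, with medians of 0.44, -0.06, 0.17 and -0.10. In CPM the endothelial sum was highest in normal exercise, the library with the fewest globin reads, but single markers differed. By normalized level in normal exercise against cancer exercise, Kdr was at 742 against 261 and Cdh5 at 591 against 401. Pecam1 was at 1289 against 1619 and Esam at 922 against 1518.

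The 14 skeletal muscle markers summed to 169262, 154293, 93326 and 104268 CPM in library order, with every marker above 0 reads. They were 1 higher and 0 lower, 2 and 5, 0 and 0, and 2 and 2 in the 4 comparisons, with medians of -0.30, -0.29, 0.22 and -0.04. The sum was lower in both tumor-bearing libraries and did not divide the libraries as the globins did. Single markers went either way. Tnnc2 had a normalized level of 403720, 340665, 112377 and 163507 in library order, whereas Myh1 had 7701, 4450, 18990 and 16914. How much of the globin difference came with the amount of blood held in the dissected muscle was not tested.

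**Figure D5:**
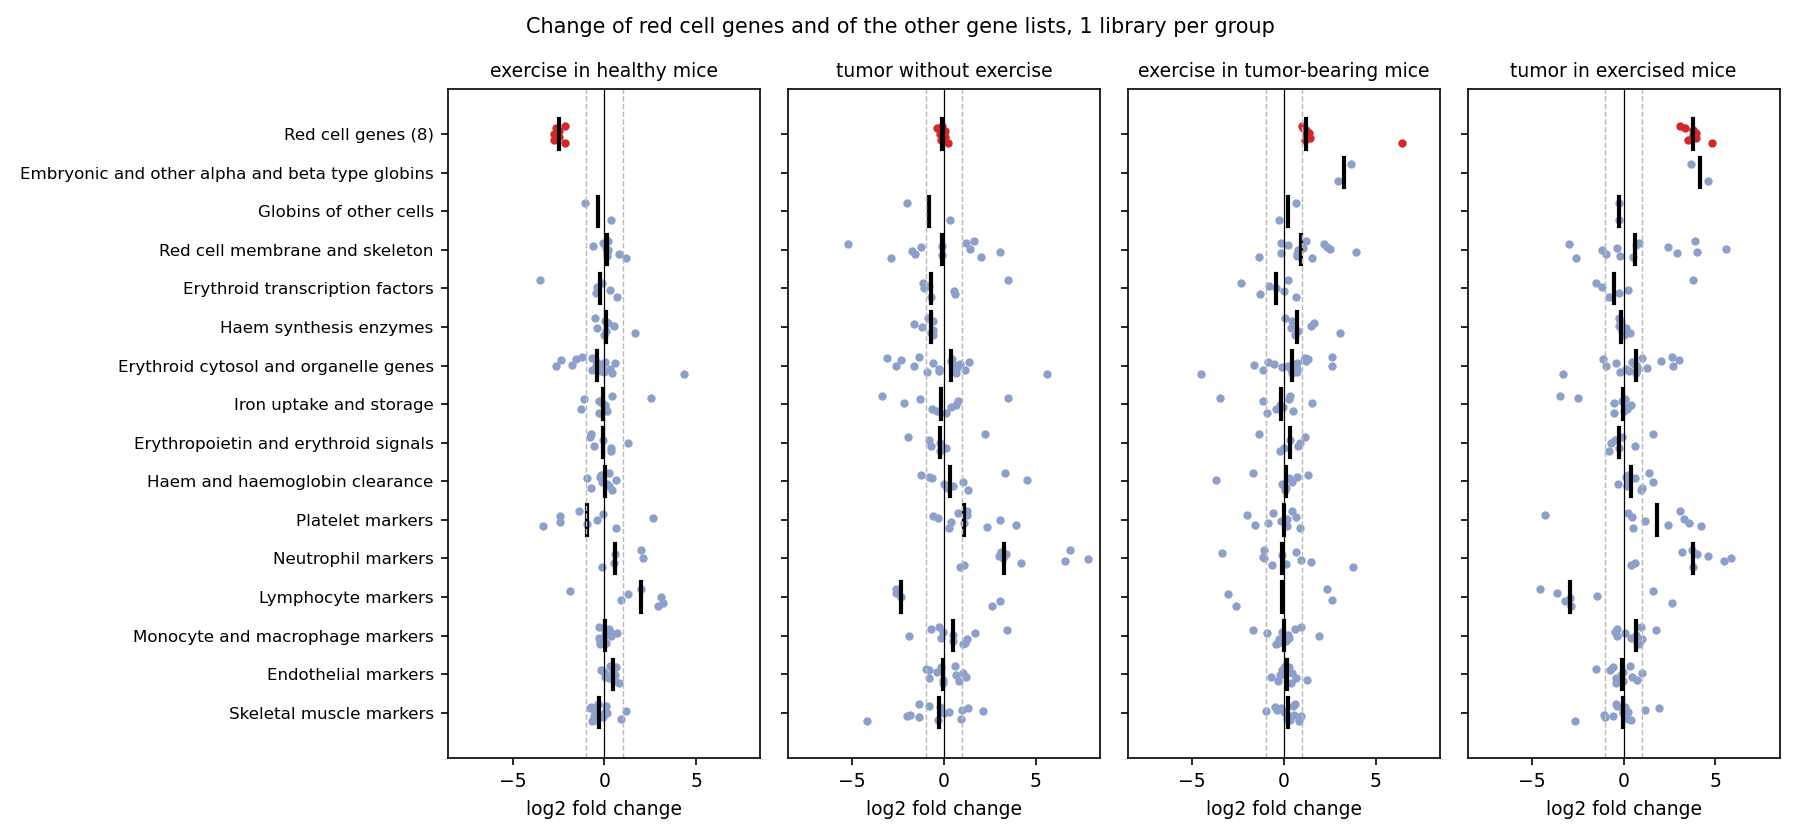
Log2 fold change (horizontal axis) of each gene that met the minimum, by gene list (rows) and comparison (panels), with the list median as a black bar and the 2-fold limits dashed. The red cell genes, in red, form a tight group at a median of -2.47 in the first panel and 3.75 in the last, while the neutrophil markers have a median of 3.29 in the second panel, where the red cell genes lie near 0.

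Genes with the pattern most like the red cell genes were ranked by the distance of centred log2 values over the 4 libraries from the median profile of the members, which was 0.32, -2.12, 0.24 and 1.56 in library order. The members that had at least 16 in every library, 7 of 8, lay at distances of 0.12 to 0.45. Of 10495 other genes ranked, the 10 nearest lay at 0.60 to 1.24. Pgf, which encodes placental growth factor, was the nearest at 0.60, with 65, 23, 67 and 130 reads in library order. Gadl1, a decarboxylase gene of muscle, followed at 0.64 with 101, 43, 156 and 324 reads. Others were Plin4 and Plin5, both lipid droplet coat genes, at 0.92 and 1.07, Lrrc2 at 1.02, Rnf31 at 1.10, Gcn1l1 at 1.14, Nt5e at 1.21 and Grrp1 at 1.24. The profile is the median of the members, so their own distances are small by construction and are not compared with those of other genes. Slc4a1 lay at 3.93.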

How the data were processed

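Gastrocnemius RNA was profiled by 3′ mRNA sequencing in 4 libraries, grouped by sample title. According to the methods and the submitters' processing notes, the authors used Bowtie2 for alignment to mm10, bedtools for counts per gene and edgeR for quantile normalization; settings for strand and for reads matching several genes are not given in the sources used here. Deposited were normalized read counts on a log2 scale after adding 1, in 23282 rows with 23238 distinct symbols. The authors' processing was modelled with 1 scaling factor per library and 1 dispersion, and whole reads were rebuilt from the steps of the deposited log2 values. Within a tolerance of 0.0006, 100% of values came from a whole read count. Above about 1442 reads some whole count always lies within that tolerance, so for abundant genes such as the globins the match is no check. The rebuilding was tested on data simulated with the same model. Without molecular identifiers, precision is stated for counting error alone.

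A gene was called at a fold change of at least 2, the limits given in the text, and exact Clopper-Pearson intervals used rebuilt reads. The members and the 15 gene lists were chosen with earlier results of these data known. Of 180 list symbols, 175 were found, older symbols included. Named genes were the members, the 4 most abundant genes of each list that met the minimum, list genes with 0 reads in one library and at least 16 in another, and the 10 genes nearest to the members; not all of these are printed, and some genes are not reported here. Alternatives tried were 4 scalings, pseudocounts of 0 and 4, no minimum or 16, a fold change of 4, thinned reads, and leaving out Hbb-b1 and Hbb-b2. Sequences and start sites came from RefSeq (GRCm38.p6), gene positions from GENCODE M21. Python 3.11.15, numpy 2.4.6, scipy 1.17.1, pandas 2.3.3, Biopython 1.88 and matplotlib 3.10.9 were used.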

Additional observations from a re-analysis of the deposited data

Results flagged for a closer look

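For 7 red cell genes the exercised library was at least 2-fold lower than its control among healthy mice and at least 2-fold higher among tumor-bearing mice. With the healthy effect of exercise subtracted from the tumor-bearing one, the difference was 3.17 for Hba-a1, 3.69 for Hba-a2, 3.69 for Hbb-bs, 4.14 for Hbb-bt, 3.68 for Hbb-b1, 4.14 for Hbb-b2 and 3.31 for Alas2, on the log2 scale. Both beta pairs may count the same reads, so these are fewer than 7 separate measurements. With 1 library per group the difference was not tested.

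Of 60 other named genes, 5 moved by at least 2-fold in opposite directions, all higher with exercise in healthy mice and lower in tumor-bearing mice. The difference was -3.10 for S100a8 and -3.21 for Lcn2, both neutrophil genes, and -8.90 for Alox15, -6.21 for Cd4 and -5.52 for Nkg7, whose values depend on the pseudocount because they had 0 reads in at least 1 library. None of these differences was tested. The share of all genes that moved by this rule is not given, for this count or for that of the 7 red cell genes.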

How the results depend on the processing

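Each count was recomputed under 11 other settings. The counts of red cell genes higher or lower stayed within 1.5 times of the main count in all but 2 cases. With no minimum level, 1 gene, Slc4a1, was counted for the tumor without exercise in place of 0, from 3 reads against 0. With a fold change of at least 4, 1 gene, again Slc4a1, was counted for exercise in tumor-bearing mice in place of 8. Of 408 values of single genes, 395 kept their side of the limit, 13 fell below it and 0 reversed. Many of these values could not change, so the count overstates how far the settings tested them. Another minimum, a 4-fold limit, or leaving out Hbb-b1 and Hbb-b2 keeps the log2 value of each gene. TMM, 1 of the scalings tried, gave nearly the deposited factors. Of the 13, 7 fell under the 4-fold limit. The other 6 were Hba-a1 and Hba-a2 with exercise in tumor-bearing mice, at 0.95 to 0.99 on the log2 scale. Total count scaling moved the median of all genes to 0.149 with exercise in healthy mice and to -0.184 with the tumor in exercised mice, small beside the changes of the members. With the Hbb-b1 and Hbb-b2 rows removed from the globins and also from the total reads, the globins took 2.09%, 0.480%, 2.07% and 4.28% in library order (normal control first, cancer exercise last), and as a percentage of non-globin reads 2.81%, 0.611%, 2.84% and 6.16%. The alpha to beta ratio, 1.05, 1.34, 0.951 and 0.806 over the 4 beta rows, was 2.07, 2.66, 1.89 and 1.60 without those rows. No paired analysis was possible because each group had 1 library. At this depth Slc4a1 and the rarer erythroid genes were near the floor, and no setting replaces replicate libraries.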
